A study of Mus musculus with 32 samples.

Results

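The 7 genes of the NMDA receptor family, *Grin1*, *Grin2a*, *Grin2b*, *Grin2c*, *Grin2d*, *Grin3a* and *Grin3b*, were followed in striatal RNA of 8 Line 4a congenic mice and 8 of their B6 littermates. They were taken by name as rows of the count tables, 7 of 23420 genes with a row, and all 7 were among the 15589 genes that passed the filter on low counts. Line 4a mice carried 1 copy of a DBA/2J (D2) segment of chromosome 11 that runs from about *Hnrnph1* to *2610507I01Rik*, on an otherwise C57BL/6J (B6) background, and the B6 littermates carried B6 alleles there. All mice were naïve and, by the labels, about 50 days old, and bilateral punches of the striatum were pooled for each mouse. Females and males were used in both genotypes according to the study's methods, but the labels give neither sex nor home cage for a mouse. Libraries of mice 1 to 4 of both genotypes ran on lanes 5 and 6 of the sequencer and those of mice 5 to 8 on lanes 7 and 8. The values of a mouse are the sum of its lane files, 31 files in all, since 1 file was analysed here for B6 mouse 7. The comparison asks which subunits of the receptor differed in level or in proportion between the genotypes.

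NMDA receptors are glutamate-gated channels that pass calcium when glutamate and a co-agonist, glycine or D-serine, are bound and the membrane is depolarised. Every receptor contains GluN1, encoded by *Grin1*, together with GluN2 subunits, which bind glutamate, or GluN3 subunits, which like GluN1 bind glycine. In the striatum they act at cortical and thalamic inputs to the projection neurons, where GluN2A and GluN2B are the GluN2 subunits best known, while GluN2D is known from interneurons and GluN2C from astrocytes and from cerebellar granule cells.

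Reads counted on genes numbered 19032826 to 33748353 per B6 mouse and 24912413 to 32085311 per Line 4a mouse. All 13 markers of striatal projection neurons were measured, at a summed level of 6267 to 9246 CPM in B6 and 6835 to 7911 CPM in Line 4a mice, and 0 of the 13 differed at an unadjusted p under 0.05 (edgeR), where 10% of all genes did. CPM are counts per 1000000 reads counted on genes, scaled with a TMM factor. A pair of libraries stood apart. Line 4a mouse 1 and B6 mouse 8 had 10.2% and 11.3% of reads on no gene, against 14.5% to 15.9% in the other 14 mice. Line 4a mouse 1 also had 27.3% of reads with more than 1 alignment, against 19.5% to 21.4% in the other 15. In that mouse genes of the longest coding sequences (3627 bases or more) stood lower than those of the shortest (579 bases or fewer), by a difference of mean deviations of -1.0 on the log2 scale, while the other 15 mice lay between -0.20 and 0.20. Genotype differences and summed levels of the subunits, their shares and ratios, and relations between genes are therefore also given without them. The marker lists and the lists of receptor-related genes are given for all mice only.

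No subunit gene lies in the congenic segment. The nearest, *Grin2c*, is on the same chromosome 56.1 Mb distal to *2610507I01Rik*. The count tables hold no positions, so those given here are the ones GENCODE lists for each symbol on mm9, while the reads were aligned to mm10. *Grin1* (ENSMUSG00000026959.7) lies on the minus strand of chromosome 2 from 25146701 to 25174707. *Grin2a* (ENSMUSG00000059003.6) spans 417.2 kb of the minus strand of chromosome 16 from 9577803 to 9995014. *Grin2b* (ENSMUSG00000030209.7) spans 443.7 kb of the minus strand of chromosome 6 from 135679844 to 136123529. These are by far the longest genes of the family, although their coding sequences of 4392 and 4446 bases are close to those of the other GluN2 genes. *Grin2c* (ENSMUSG00000020734.6) lies on the minus strand of chromosome 11 from 115110483 to 115128557, and *Grin2d* (ENSMUSG00000002771.9) on that of chromosome 7 from 53087253 to 53126298. *Grin3a* (ENSMUSG00000039579.8) lies on the minus strand of chromosome 4 from 49674483 to 49858616, and *Grin3b* (ENSMUSG00000035745.2) on the plus strand of chromosome 10 from 79433460 to 79439935. Exons of *Grin1* overlap those of E130003G02Rik on the opposite strand over 1307 bases, and exons of *Grin3b* overlap those of ORF61 over 1059 bases. The authors counted without strand, so reads in such overlaps could not be told apart and were counted on neither gene where both were annotated.

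*Grin2a* and *Grin2b* were lower in Line 4a mice by 2.53-fold and 2.55-fold in their fitted levels, and the other 5 subunits differed by 1.07-fold or less. Neither difference passed correction over all genes. At an adjusted p under 0.05, 0 of the 7 subunits were called, where 0.00641% of all genes tested were (1 gene; edgeR's quasi-likelihood test with Benjamini-Hochberg adjustment). DESeq2 and edgeR's likelihood ratio test also called 0 subunits. At an unadjusted p under 0.05, 2 of the 7 were called, against 10% of all genes, and both were lower in Line 4a, as were 5.14% of all genes.

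The GluN2A subunit gives receptors fast deactivation and rises during postnatal development. *Grin2a* reached 4.09 CPM in the lowest B6 mouse, 14.1 CPM at the median and 25.0 CPM in the highest, and 1.76, 5.64 and 7.26 CPM in Line 4a mice. All 8 Line 4a mice lay below the B6 median, but the groups overlapped, because B6 mice 1, 4 and 7 lay within the Line 4a range while B6 mice 2, 3, 5, 6 and 8 lay above it. The means were 13.2 ± 7.70 CPM in B6 and 5.24 ± 1.82 CPM in Line 4a (SD, n = 8 each). The log2 fold change was -1.34 (95% interval -2.08 to -0.60, SE 0.35, unadjusted p = 0.00126, adjusted p = 0.331, edgeR's quasi-likelihood test), which ranked 55 of 15589 genes by p. An exact two-sided permutation test of the mean log2 CPM of the 16 mice gave p = 0.0171.

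The GluN2B subunit gives slower receptors, predominates early in development and carries the tail to which CaMKII binds. *Grin2b* levels were 7.62, 29.5 and 58.9 CPM in the lowest, median and highest B6 mouse and 5.08, 11.96 and 16.1 CPM in Line 4a mice. B6 mice 1, 4 and 7 were again within the Line 4a range and the other 5 B6 mice above it. The means were 27.7 ± 18.3 CPM in B6 and 10.9 ± 3.94 CPM in Line 4a (SD, n = 8 each). The log2 fold change was -1.35 (95% interval -2.16 to -0.55, SE 0.38, unadjusted p = 0.00241, adjusted p = 0.340, edgeR's quasi-likelihood test), rank 108. The exact permutation test gave p = 0.0340.

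**Figure D1:**
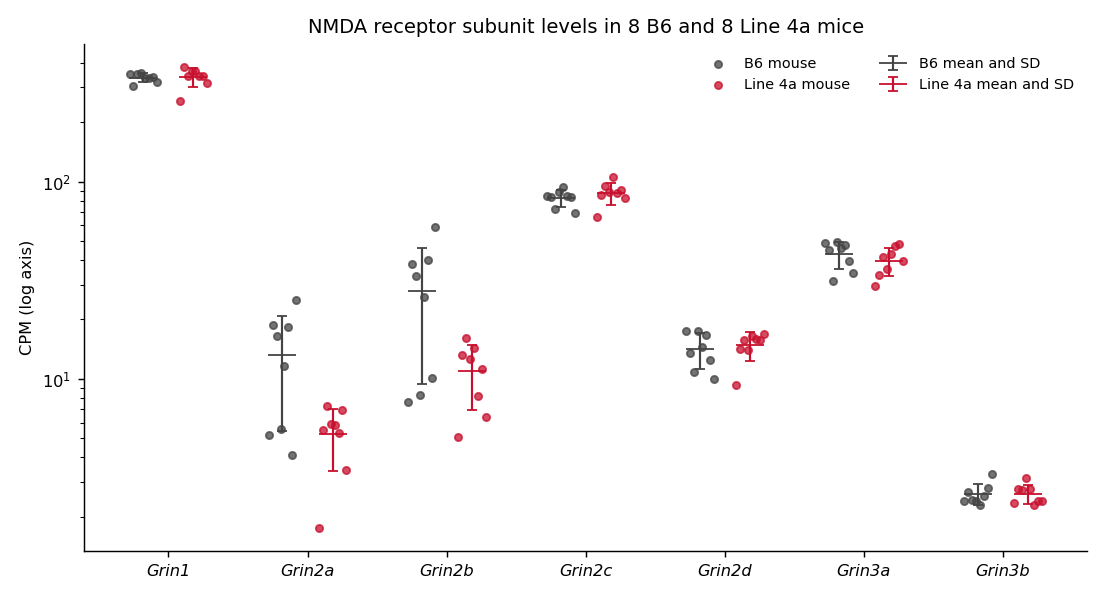
Level of each NMDA receptor subunit in CPM on a log axis, 1 point per mouse, with the mean and SD of the 8 mice of each genotype (B6 grey, Line 4a red). For *Grin2a* and *Grin2b* the B6 mice divide into 3 within the Line 4a range and 5 above it, while the genotypes cover much the same range for the other 5 subunits.

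*Grin1*, the obligatory subunit, was the most abundant of the family by count. Its level was 305.1, 337.3 and 354.9 CPM in the lowest, median and highest B6 mouse and 256.4, 344.0 and 380.4 CPM in Line 4a mice. The lowest of all was Line 4a mouse 1, and the ranges overlapped almost wholly. The log2 fold change was 0.01 (95% interval -0.13 to 0.15, adjusted p = 0.966, edgeR).

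*Grin2c* encodes a subunit of receptors with weak magnesium block. It stood at 69.3, 84.0 and 94.0 CPM in the lowest, median and highest B6 mouse and at 66.0, 88.2 and 105.4 CPM in Line 4a mice. The ranges overlapped, with 2 Line 4a mice above all B6 mice and Line 4a mouse 1 below them. Its log2 fold change was 0.09 (95% interval -0.08 to 0.25, unadjusted p = 0.288, edgeR). Without Line 4a mouse 1 it was 0.13 with an unadjusted p of 0.0443 and an adjusted p of 0.360 (edgeR). Without both that mouse and B6 mouse 8 it was 0.10 (unadjusted p = 0.0887, adjusted p = 0.459, edgeR). Among markers of other cells known to express *Grin2c*, 0 of 6 astrocyte markers differed at an unadjusted p under 0.05, against 10% of all genes. Of 5 cerebellar granule cell markers *Gabra6*, the defining one, did not pass the filter on low counts. The other 4 did, and of these *Neurod1*, which is also on the list of cortical markers, was lower in Line 4a mice (log2 fold change -0.82, unadjusted p = 0.0342, edgeR). *Cbln1*, *Cbln3* and *Zic1* averaged 8.06, 2.68 and 15.4 CPM in B6 and 6.66, 2.94 and 15.9 CPM in Line 4a mice.

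*Grin2d* encodes a subunit of slowly deactivating receptors. Its lowest, median and highest levels were 9.92, 14.1 and 17.6 CPM in B6 mice and 9.31, 15.7 and 16.9 CPM in Line 4a mice. The ranges overlapped, and the log2 fold change was 0.06 (95% interval -0.21 to 0.34, unadjusted p = 0.641, edgeR), and Line 4a mouse 1 lay apart from the other 7 of its genotype, which began at 13.9 CPM. Of 9 markers of striatal interneurons, cells known to express *Grin2d*, 3 were higher in Line 4a mice at an unadjusted p under 0.05, against 4.86% of all genes, and 0 were lower. They were *Lhx8* (0.36, p = 0.00560) and *Nkx2-1* (0.32, p = 0.0197), transcription factors of these cells, and the choline transporter *Slc5a7* (0.19, p = 0.0193), named after their values were seen (log2 fold changes, edgeR, unadjusted). The others did not pass, with log2 fold changes of 0.10 for *Chat*, -0.04 for *Sst*, -0.09 for *Npy*, 0.37 for *Pvalb*, 0.08 for *Th* and 0.02 for *Lhx6*. The part of these markers in the level of *Grin2d* was not tested.

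*Grin3a* encodes a glycine-binding subunit that lowers calcium permeability. It stood at 31.2, 45.5 and 49.2 CPM in B6 mice and at 29.7, 40.3 and 48.0 CPM in Line 4a mice. These ranges overlapped too, and the log2 fold change was -0.10 (95% interval -0.33 to 0.12, unadjusted p = 0.352, edgeR). *Grin3b*, the other GluN3 gene, was the least abundant, at 2.30, 2.49 and 3.31 CPM in B6 mice and 2.29, 2.57 and 3.16 CPM in Line 4a mice. These rest on 53 to 101 reads per mouse, and the log2 fold change was 0.00073 (95% interval -0.20 to 0.20, edgeR). For these 5 subunits the intervals leave room for differences of up to about 0.34 on the log2 scale in one direction or the other.

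Single B6 mice differed in *Grin2a* and *Grin2b* by more than the genotype means did. Within B6, the highest mouse exceeded the lowest 6.11-fold for *Grin2a* and 7.72-fold for *Grin2b*, but 1.16-fold for *Grin1* and 1.36-fold for *Grin2c*. The SD between mice of a genotype was 0.85 (log2 CPM) for *Grin2a* and 0.92 for *Grin2b*, at percentiles 99.7 and 99.8 of the 11827 genes with a mean of at least 5 CPM, whose median SD was 0.14. *Grin2d* followed at percentile 92.8, *Grin3a* at 87.5, *Grin2c* at 65.2 and *Grin1* at 46.4. The lane files of a mouse repeated its level. In the 15 mice with both lanes, the higher lane exceeded the lower by 1.19-fold at most for *Grin2b* and 1.43-fold at most for *Grin2a*. B6 mouse 8, the highest, held 25.3 and 23.0 CPM of *Grin2a* in its lanes, without TMM scaling, and B6 mouse 1 held 4.29 and 6.15.

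*Grin2a* and *Grin2b*, which lie on different chromosomes, moved together. After removal of the genotype means, Pearson's r of their log2 CPM over the 16 mice was 0.95 and Spearman's rho 0.92, and r was 0.94 without B6 mouse 8 and Line 4a mouse 1. Within B6 mice, which fell into 3 low and 5 high, r was 0.97, and within Line 4a mice it was 0.89 (8 mice each). The mice of both genotypes lay along one line, from Line 4a mouse 1 at the low end to B6 mouse 8 at the high end, with Line 4a mice and B6 mice 1, 4 and 7 mixed in its lower part. *Grin2d* and *Grin3a* also moved together (r = 0.87, and 0.81 without those 2 mice). *Grin2c* followed *Grin2d* and *Grin3a* at r = 0.79 and 0.76, which became 0.48 and 0.60 without them. *Grin1* followed *Grin2c* at r = 0.64, which became 0.10. Between the pair *Grin2a* and *Grin2b* and *Grin1*, *Grin2c*, *Grin2d* and *Grin3a*, r differed in sign between the genotypes, a difference that was not tested. With *Grin3b* it was positive in both, at 0.38 within B6 and 0.45 within Line 4a mice for *Grin2a* and 0.46 and 0.70 for *Grin2b*. For *Grin2a* with *Grin2c*, r was -0.50 within B6 and 0.88 within Line 4a mice (0.14 over the 16 mice), and for *Grin2a* with *Grin3a* -0.41 and 0.69 (0.02 over the 16). For *Grin2b* with *Grin2c* it was -0.50 and 0.83, and with *Grin3a* -0.48 and 0.35. Line 4a mouse 1 was the lowest of its genotype for *Grin1*, *Grin2a*, *Grin2b*, *Grin2c*, *Grin2d* and *Grin3a*. Values of r within Line 4a mice are not given without it. Without B6 mouse 8 and Line 4a mouse 1 the relations of *Grin2a* and *Grin2b* with *Grin2c* and *Grin3a* had r between -0.27 and 0.04 over the other 14 mice. With *Grin1* and *Grin2d*, r was then -0.21 and -0.28 for *Grin2a* and -0.15 and -0.41 for *Grin2b*. These are descriptions over mice that share RNA preparation and library effects.

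**Figure D2:**
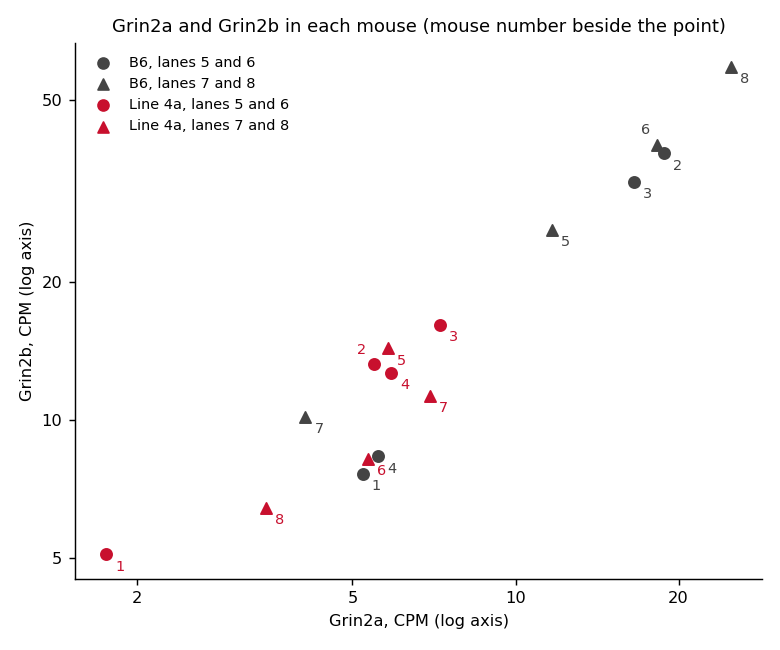
*Grin2a* against *Grin2b* in CPM, both axes logarithmic, 1 point per mouse with its number; colour gives the genotype and shape the lane pair. The 5 high B6 mice include mice of both lane pairs, and B6 mice 1, 4 and 7 lie among the Line 4a mice.

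Among the 11821 genes outside the family with a mean of at least 5 CPM, those whose log2 CPM followed each subunit most closely over the 16 mice, genotype means removed, were as follows. For *Grin2a* they were *Tmem245* (r = 0.96), *Dgkh* (r = 0.95) and *Dgki* (r = 0.95), the last pair encoding diacylglycerol kinases. For *Grin2b* they were *Tmem245* (r = 0.93), *Purb* (r = 0.92) and *Slc30a4* (r = 0.92), a zinc transporter. *Tmem245* thus led both lists, with a log2 fold change of -0.53 (unadjusted p = 0.00605, adjusted p = 0.385, edgeR), and *Dgkh* had one of -1.25 (unadjusted p = 0.00257, adjusted p = 0.342, edgeR). *Grin1* was followed by *Dagla*, *Brpf3* and *Zfp46* (r = 0.96, 0.95 and 0.93). *Grin2c* was followed by *Kif21b*, *Itpr2* and *Tnrc6a* (r = 0.91, 0.90 and 0.90), *Grin2d* by *Prrc1*, *Nacad* and *Stab1* (r = 0.95, 0.94 and 0.94), and *Grin3a* by *Iqsec3*, *St8sia1* and *Akap2* (r = 0.96, 0.94 and 0.94). No gene led for *Grin3b*, whose mean was under 5 CPM. Without B6 mouse 8 and Line 4a mouse 1 each list had another leading gene. *Herc1* then led for both *Grin2a* and *Grin2b* (r = 0.97 for each), with *Tmem245* at rank 3 for both (r = 0.96 and 0.93). *Zfp46* led for *Grin1* (r = 0.91), *Klhl18* for *Grin2c* (r = 0.86), *Galnt10* for *Grin2d* (r = 0.95) and *Limk1* for *Grin3a* (r = 0.95). The genes named above for *Grin2c* then stood at ranks 24, 38 and 41.

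As proportions of the family, *Grin2a* and *Grin2b* were lower and *Grin2c* higher in Line 4a mice at an unadjusted p under 0.05 over the 16 mice, but not without the 2 libraries that stood apart. Of the reads counted on the 7 genes, *Grin1* took 64.8% ± 3.57 in B6 and 67.8% ± 1.92 in Line 4a mice (mean and SD, n = 8 each). *Grin2c* took the most reads of the GluN2 genes, 15.9% ± 1.51 in B6 and 17.5% ± 0.956 in Line 4a, an increase of 1.63 percentage points (p = 0.0176, exact two-sided permutation test). *Grin2b* took 5.32% ± 3.50 in B6 and 2.14% ± 0.627 in Line 4a (p = 0.0236, exact permutation test). *Grin2a* took 2.52% ± 1.47 in B6 and 1.02% ± 0.300 in Line 4a (p = 0.0163, exact permutation test). The shares of *Grin1*, *Grin2d*, *Grin3a* and *Grin3b* gave exact permutation p-values of 0.0547, 0.322, 0.669 and 0.491. These p-values of 7 shares are unadjusted, and the shares of a mouse sum to 100%, so that a lower share of one gene raises others. Without B6 mouse 8 and Line 4a mouse 1, the shares of *Grin2a*, *Grin2b* and *Grin2c* differed by -1.09, -2.22 and 1.22 points (p = 0.0577, 0.0693 and 0.0559, exact permutation tests of 7 against 7 mice). Within 1 lane pair, where an exact test of 4 against 4 mice cannot go below p = 0.0286, none of the 3 differences passed. The *Grin2b* share was lower on both, by a difference of -1.90 points (p = 0.371) on lanes 5 and 6 and of -4.46 points (p = 0.0857) on lanes 7 and 8 (exact permutation tests).

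The reads on the 7 genes together came to 519.1 ± 15.3 CPM in B6 and 499.6 ± 57.3 CPM in Line 4a (SD, n = 8 each). The Line 4a mean was drawn down by mouse 1, at 370.6 CPM, below the next at 467.9 CPM. Without that mouse and B6 mouse 8 the means were 518.9 ± 16.5 CPM in B6 and 518.0 ± 25.7 CPM in Line 4a (SD, n = 7 each).

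**Figure D3:**
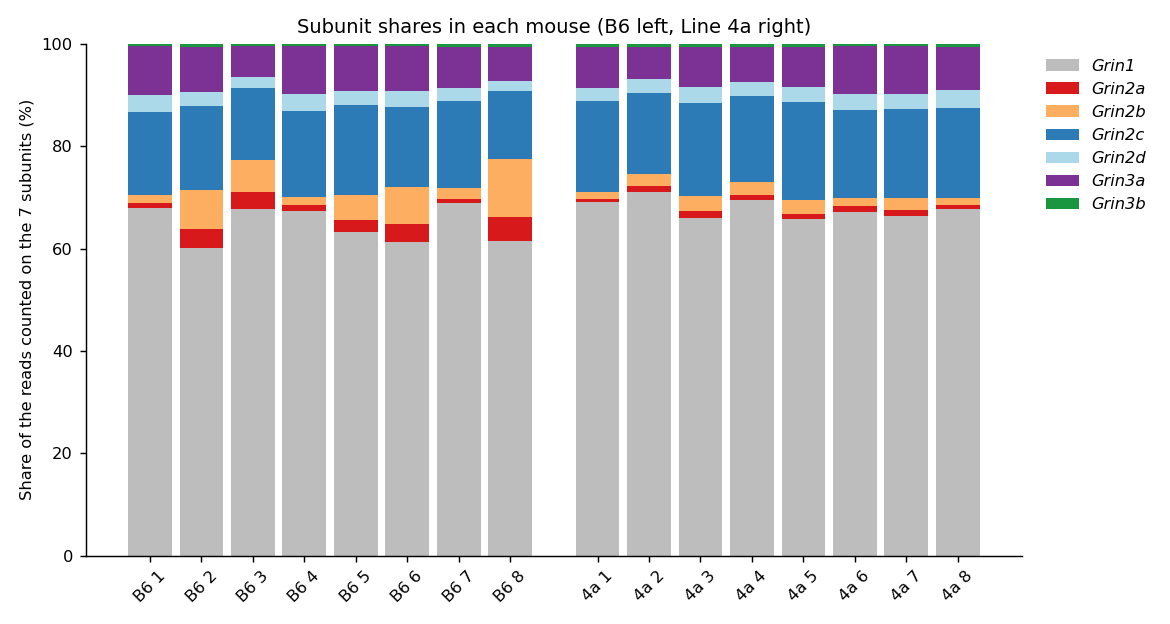
Share of the reads on the 7 subunit genes taken by each, in percent, 1 bar per mouse, B6 on the left and Line 4a on the right. *Grin1* takes 60.2% to 71.1% in every mouse, and the *Grin2a* and *Grin2b* segments are widest in B6 mice 2, 3, 5, 6 and 8.

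Among the 4 GluN2 genes alone, *Grin2c* took 61.5% ± 12.2 of the reads in B6 and 74.2% ± 2.90 in Line 4a mice (p = 0.0154, exact permutation test). It ranged from 42.5% to 75.8% in B6 and from 70.8% to 80.3% in Line 4a. Without B6 mouse 8 and Line 4a mouse 1 it took 64.2% ± 10.2 and 73.3% ± 1.63 (p = 0.0577, exact permutation test, n = 7 each). *Grin2b* took 18.9% ± 10.6 and 8.99% ± 2.35, *Grin2a* 9.05% ± 4.41 and 4.31% ± 1.16, and *Grin2d* 10.6% ± 3.14 and 12.5% ± 1.41 (B6 and Line 4a, SD, n = 8 each). These 4 shares also sum to 100% in a mouse. All these shares are of reads, not corrected for gene length or for which exons were counted, and they are not shares of protein. Per kb of all annotated exons, *Grin2c* took 26.1% of the 7 subunits in B6 and 28.8% in Line 4a mice, and *Grin2b* 5.36% and 2.16%.

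The ratio of *Grin2a* to *Grin2b*, often used to describe the maturity of synaptic NMDA receptors, did not differ between the genotypes beyond its spread. *Grin2a* had fewer reads than *Grin2b* in all 16 mice. The log2 ratio of their counts was -0.99 ± 0.29 in B6 and -1.07 ± 0.31 in Line 4a (SD, n = 8 each), a difference of -0.08 (SE 0.15, p = 0.609, exact permutation test), and of -0.05 (p = 0.756, exact permutation test) without B6 mouse 8 and Line 4a mouse 1. The lane pairs disagreed in direction. On lanes 5 and 6 the ratio was -0.78 ± 0.26 in B6 and -1.26 ± 0.19 in Line 4a, with no overlap between 4 and 4 mice (p = 0.0286, exact permutation test, the smallest it can give). On lanes 7 and 8 it was -1.21 ± 0.08 in B6 and -0.88 ± 0.30 in Line 4a (p = 0.114, exact permutation test). The differences of the lane pairs differed by 0.81 (p = 0.00449, exact permutation of genotype within lane pair, a test chosen after the lane pair values had been seen).

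No difference between lane pairs in the genotype effect on a subunit was detected by edgeR's interaction test. In it 0 of all genes passed an adjusted p of 0.05, and unadjusted p-values of the subunits ran from 0.0640 for *Grin3a* to 0.702 for *Grin2a*. With 4 mice of each genotype per lane pair the test could miss differences. The log2 fold changes on lanes 5 and 6 and on lanes 7 and 8 were -0.31 and 0.08 for *Grin3a* and -0.16 and 0.28 for *Grin2d* (edgeR). For *Grin2a* the log2 fold change was -1.18 (p = 0.0438) on lanes 5 and 6 and -1.49 (p = 0.00480) on lanes 7 and 8, and for *Grin2b* -0.89 (p = 0.140) and -1.77 (p = 0.00192), all unadjusted and from edgeR. Without B6 mouse 8 and Line 4a mouse 1, *Grin2a* and *Grin2b* stood at -1.01 and -1.0 (unadjusted p = 0.00400 and 0.0110, adjusted p = 0.250 and 0.295, edgeR).

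Markers of cortical glutamatergic neurons, which express *Grin2a* and *Grin2b* strongly and surround the striatum, were in part lower in Line 4a mice. All 10 were measured and none was at 0. Of these, 6 were lower at an unadjusted p under 0.05, against 5.14% of all genes, 0 were higher, and 0 passed an adjusted p of 0.05 (edgeR). The list was chosen with earlier results of these data known, so this count is no independent observation. *Rorb*, *Lamp5*, *Cux2* and *Rspo1* did not pass, with log2 fold changes of -0.0156, -0.08, -0.28 and 0.14. The median log2 fold change of the 10 was -0.40, against 0.01 over all genes. Their summed level was 479.7 to 713.0 CPM in B6 and 408.5 to 614.6 CPM in Line 4a mice. A cortical score, the mean standardised log2 CPM of the 10 markers, averaged 0.39 ± 0.52 in B6 and -0.39 ± 0.68 in Line 4a mice (mean and SD, n = 8 each). With the score in the model, *Grin2a* had a log2 fold change of -1.02 (unadjusted p = 0.0465) and *Grin2b* one of -0.95 (unadjusted p = 0.0768), both with an adjusted p of 0.925 (edgeR). *Grin3a* then had one of -0.26 (unadjusted p = 0.0474, edgeR). In bulk tissue, fewer cells of a type and less RNA per cell cannot be told apart, and the part of cortical tissue in the subunit differences was not tested beyond this model.

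Over the 16 mice, log2 CPM of *Grin2a* followed the cortical score with r = 0.53 and rho = 0.45 (permutation p = 0.0357 and 0.0843), and *Grin2b* with r = 0.54 and rho = 0.50 (permutation p = 0.0294 and 0.0480). Adjusted over the 14 relations of 7 subunits with this score and the gene length score, the p-values of r were 0.0833 for *Grin2a* and 0.0822 for *Grin2b*, and those of rho were 0.236 and 0.168 (permutation tests). Without the 2 mice farthest from the median score, B6 mouse 3 and Line 4a mouse 7, r was 0.51 and 0.50. The other 5 subunits had r between -0.36 and 0.15. These values include the genotype difference in both measures. With genotype means removed, r was 0.29 and rho 0.26 for *Grin2a* (p = 0.260 and 0.352, permutation within genotype) and 0.35 and 0.35 for *Grin2b* (p = 0.170 and 0.199), and over the same 14 relations the adjusted p-values of r were 0.404 and 0.335 (permutation tests). The relation over the 16 mice thus did not hold at p = 0.05 within genotype, a calculation added after the data were seen. Within each genotype, r of *Grin2a* with the score was 0.63 in B6 and -0.06 in Line 4a mice and that of *Grin2b* 0.52 and 0.18. Within lane pair, r was 0.55 on lanes 5 and 6 and 0.79 on lanes 7 and 8 for *Grin2a*, and 0.54 and 0.83 for *Grin2b* (8 mice each, with no test).

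**Figure D4:**
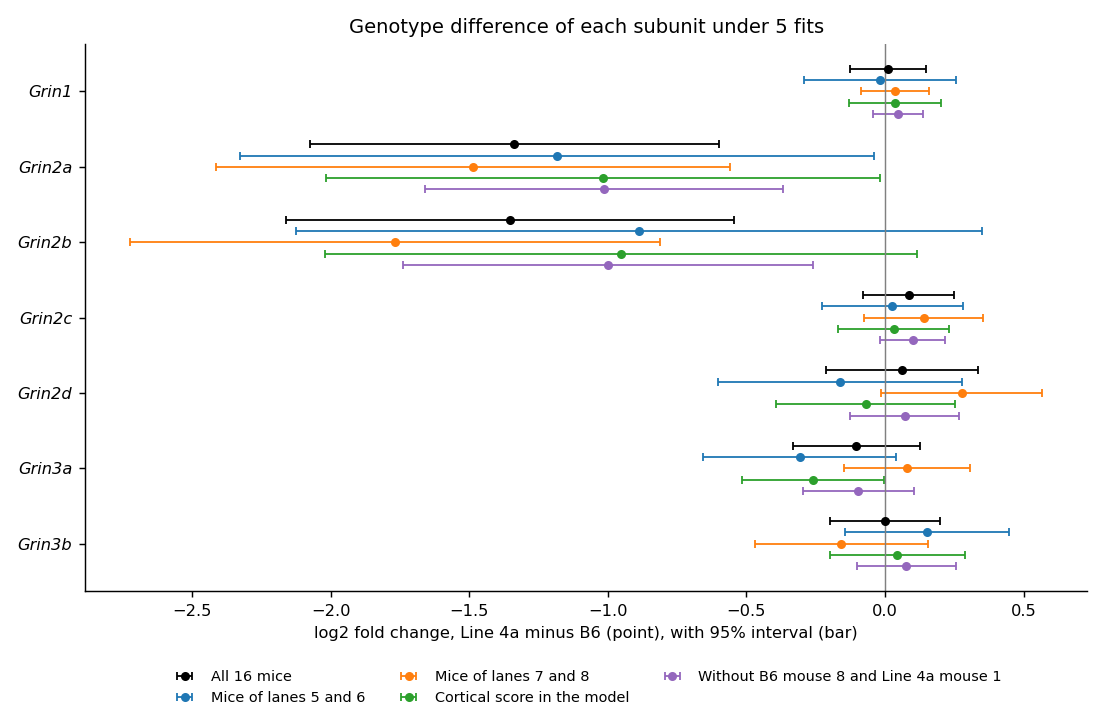
log2 fold change of each subunit, Line 4a minus B6 (points), with its 95% interval (bars), for all 16 mice, for each lane pair alone, with the cortical score in the model and without the 2 libraries that stood apart. *Grin2a* and *Grin2b* lie between -0.89 and -1.77 in all 5 fits, and the points of the other subunits lie between -0.31 and 0.28.

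Levels of different subunits can be set side by side only per length. Per kilobase of all annotated exons, the order over the 16 mice, by the mean of log2 levels, was *Grin1*, *Grin2c*, *Grin3a*, *Grin2d*, *Grin2b*, *Grin2a*, *Grin3b*. Line 4a mice alone gave this order too, while in B6 mice alone *Grin2b* came before *Grin2d*. The levels per kb were 34.8 ± 2.96 CPM for *Grin1*, 16.9 ± 1.94 for *Grin2c*, 2.61 ± 0.417 for *Grin3a*, 2.47 ± 0.450 for *Grin2d*, 2.37 ± 1.89 for *Grin2b*, 1.74 ± 1.28 for *Grin2a* and 0.791 ± 0.0909 for *Grin3b* (mean and SD of 16 mice). Steps in this order were tested within mice by exact sign flips. *Grin1* exceeded *Grin2c* 2.07-fold and *Grin2c* exceeded *Grin3a* 6.50-fold, each in 16 of 16 mice (p = 3.05e-05, the smallest possible). *Grin3a* and *Grin2d* lay close together (1.07-fold, 11 of 16 mice, p = 0.0479). Over both genotypes together, *Grin2d* and *Grin2b* did not differ beyond their spread (1.33-fold, 11 of 16 mice, p = 0.173). That spread includes the genotype difference in *Grin2b*. Geometric means of *Grin2d* and *Grin2b* were 2.36 and 2.66 CPM per kb in B6 mice and 2.48 and 1.25 in Line 4a mice. The steps were not tested within a genotype. *Grin2b* exceeded *Grin2a* 1.33-fold in 13 of 16 mice (p = 3.66e-04), and *Grin2a* exceeded *Grin3b* 1.75-fold in 13 of 16 (p = 0.00565).

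By the mean of log2 levels over the 16 mice the order was the same per kilobase of the longest transcript and per kilobase of coding sequence, but the steps were not. Per kb of coding sequence *Grin2d* and *Grin2b* lay 1.05-fold apart over mice of both genotypes together (p = 0.807, exact sign flips). By arithmetic means they changed places (3.58 ± 0.653 and 4.35 ± 3.48 CPM per kb, mean and SD of 16 mice). *Grin1* exceeded *Grin2c* 4.55-fold per kb of longest transcript and 5.19-fold per kb of coding sequence, and *Grin2c* exceeded *Grin3a* 3.18-fold and 1.85-fold. The 14 annotated transcripts of *Grin1* cover 9700 bases of exon, while its longest holds 4276. Between the genotypes the order of the middle subunits differed in value. By arithmetic means per kb of exon, B6 mice held 3.40 ± 2.24 CPM of *Grin2b*, 2.71 ± 0.434 of *Grin3a*, 2.48 ± 1.45 of *Grin2a* and 2.41 ± 0.506 of *Grin2d* (SD, n = 8). Line 4a mice held 1.34 ± 0.482 of *Grin2b*, 2.52 ± 0.406 of *Grin3a*, 0.990 ± 0.343 of *Grin2a* and 2.52 ± 0.414 of *Grin2d* (SD, n = 8). These levels depend on which exons were counted. The authors counted reads on the exons of UCSC's annotation, which was not used here, and in the mm9 annotation the longest 3′ untranslated stretch is 120 bases for *Grin2a* and 2275 for *Grin2b*.

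**Figure D5:**
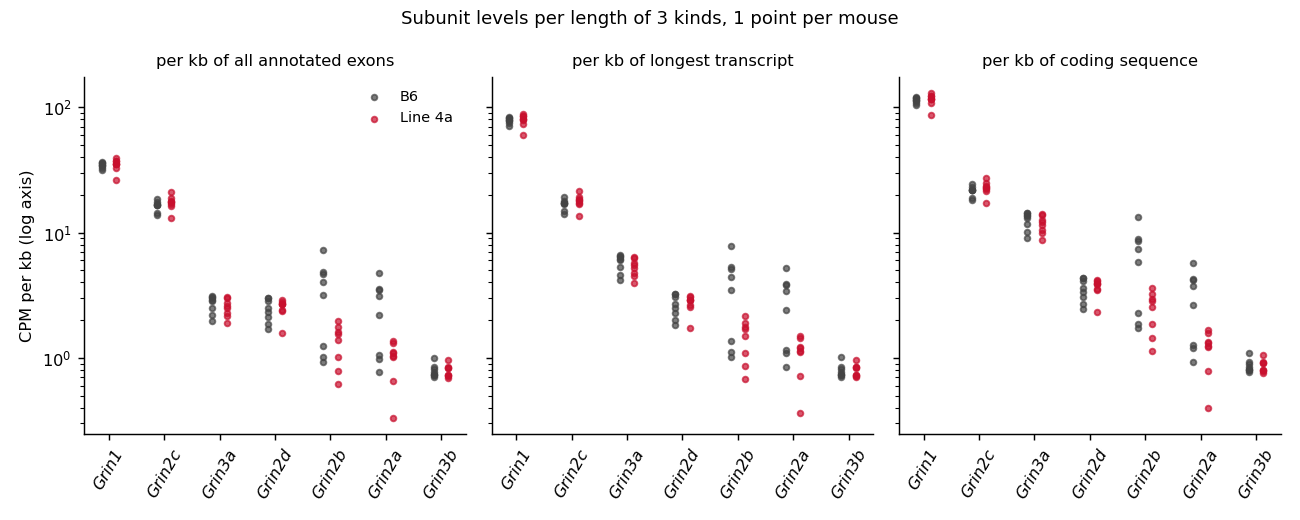
Levels of the 7 subunits in CPM per kb on a log axis, 1 point per mouse (B6 grey, Line 4a red), with length taken from all annotated exons, the longest transcript or the coding sequence. The order of mean log2 levels over the 16 mice, from *Grin1* down to *Grin3b*, is the same for the 3 lengths, and *Grin2a* and *Grin2b* spread most between mice.

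No gene of 4 lists of proteins that act on the receptor or downstream of it passed correction over all genes. Of 12 genes that supply or remove its co-agonists or, like *Kyat1*, make an antagonist of the glycine site, 9 were tested. Of these, 4 were higher and 1 lower in Line 4a at an unadjusted p under 0.05, against 4.86% of all genes higher and 5.14% lower. The median log2 fold change of the 9 was 0.12, against 0.01 over all genes. The smallest p-values were those of *Kyat1* (listed as *Ccbl1*), which makes the glycine-site antagonist kynurenic acid, with a log2 fold change of 0.20 (p = 0.0125), of *Shmt2*, which interconverts serine and glycine, with 0.12 (p = 0.0304), and of *Slc7a10*, a transporter of glycine and D-serine, with 0.20 (p = 0.0359). The others, named after their values were seen, were the glycine transporter *Slc6a9* with 0.25 (p = 0.0377) and *Srr*, which makes D-serine, with -0.15 (p = 0.0375). All these p-values are unadjusted and from edgeR.

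Of 15 scaffolds, auxiliary proteins and transport proteins of the receptor, 3 were lower at an unadjusted p under 0.05, against 5.14% of all genes, and 0 higher, with a median of -0.08. They were *Lin7a* (-0.25, p = 0.00109), *Cask* (-0.18, p = 0.00391) and *Apba1* (-0.14, p = 0.0466), which encode adaptor proteins of synapses (edgeR, unadjusted). Their relatives *Lin7b* and *Lin7c* and the motor *Kif17*, which carries receptor vesicles, did not pass, with log2 fold changes of 0.08, -0.0083 and 0.03. Of 17 kinases and phosphatases of the receptor 1 was lower and 0 higher, and of 13 downstream signalling genes, 12 of which were tested, 1 was lower and 0 higher. These shares are near those of all genes, 5.14% lower and 4.86% higher. The medians were -0.03 and -0.07, and the genes counted were *Prkca* (-0.23, p = 0.0234) and *Kalrn* (-0.23, p = 0.0237) (edgeR, unadjusted). The summed level of the 15 scaffold, auxiliary and transport genes was 3889 to 4316 CPM in B6 and 2968 to 3995 CPM in Line 4a mice. None of these lists is given without the libraries that stood apart, and the part of those libraries in the values was not tested.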

How the data were processed

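Striatal RNA of 8 Line 4a and 8 B6 mice was sequenced by the authors as 50-base single-end reads from oligo-dT selected, stranded libraries. Per the authors' scripts, alignment to mm10 used TopHat with bowtie2 2.2.2, and HTSeq 0.6.1p1 (union mode, strand ignored) gave the counts on exons. The deposited files hold raw counts per gene for each mouse and lane. Reads with more than 1 alignment or on more than 1 gene were left out. The authors' own edgeR results (fold changes, p-values, FDR) were not used.

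Lane files of a mouse differed by little more than sampling noise (chi-square per degree of freedom 0.997 to 1.051) and were summed. edgeR 4.0.16 in R 4.3.3 served for the filter (filterByExpr), the TMM scaling and the quasi-likelihood test, and p-values were adjusted over all genes by Benjamini and Hochberg's method. The study's model included home cage, which the labels do not give. log2 CPM used a prior count of 0.5. Shares, ratios and order were tested with exact two-sided permutation or sign-flip tests, and relations with 100000 resamples (Python, scipy). DESeq2 1.42.0, other scalings and filters, lane pair and score terms, a replicate block, the second lane, each lane pair alone and leaving out each mouse were alternatives. Scripts were tested on simulated data. Nothing in the labels says how the RNA of the mice was batched beyond lanes.

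The subunits and the lists were chosen with earlier results of these data known. All 7 subunits are named throughout. Of the 4 receptor lists, up to 3 genes with the smallest unadjusted p under 0.05 are named. For likeness the 3 genes with the highest r are named. In 9 further marker lists (interneurons, thalamus, cerebellar granule cells, oligodendrocytes and their precursors, microglia, endothelium, choroid plexus, hypothalamus), 48 of 53 entries were tested, of which 2 were lower and 5 higher in Line 4a at an unadjusted p under 0.05, against 5.14% and 4.86% of all genes. The lower were *Neurod1* and the thalamic marker *Rora* (-0.62, unadjusted p = 0.0263, edgeR), and 3 of the higher were interneuron markers. The other thalamic markers, *Tcf7l2*, *Prkcd*, *Lef1* and *Ntng1*, did not pass, with log2 fold changes of 0.10, 0.11, 0.22 and -0.32. The median of the thalamic list was 0.10.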

Additional observations from a re-analysis of the deposited data

Results flagged for a closer look

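Within each genotype the 8 mice were searched for 1 mouse set apart (Dixon's test at the 95% level, 38 groups of 8, of which chance flags about 1 in 20), and 5 values were found. Line 4a mouse 1 had 9.31 CPM of *Grin2d*, against 13.9 to 16.9 CPM in the other 7 Line 4a mice. The same mouse had 370.6 CPM on the 7 subunits together, against 467.9 to 549.5 CPM. Its share of reads on no gene was 10.2%, against 14.5% to 15.6%, and its difference between long and short genes was -1.0 on the log2 scale, against 0.02 to 0.14. The 5 values do not include its share of reads with more than 1 alignment. That share was 27.3%, against 20.4% to 21.1% in the other 7 Line 4a mice. B6 mouse 8 had 11.3% of reads on no gene, against 14.8% to 15.9% in the other B6 mice, and it was the B6 mouse with the highest *Grin2a* and *Grin2b* and the lowest *Grin2c* and *Grin2d*. The part of these library properties in the subunit values was not tested beyond leaving the mice out.

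The genotype difference in the log2 ratio of *Grin2a* to *Grin2b* was -0.48 on lanes 5 and 6 and 0.33 on lanes 7 and 8, which differ by 0.81 (p = 0.00449, exact permutation of genotype within lane pair). The test was chosen after these opposite values had been seen, so it restates them and is no independent support. The lane pair holds different mice, so lanes and mice cannot be told apart.

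Over the 16 mice, the difference between long and short genes was related to *Grin1* (r = 0.84, rho = 0.35), *Grin2c* (r = 0.71, rho = 0.64), *Grin2d* (r = 0.73, rho = 0.57) and *Grin3a* (r = 0.62, rho = 0.62), with permutation p-values of r, adjusted over 14 relations, of 0.0104, 0.00224, 0.00224 and 0.00891. Those of rho were 0.340, 0.0857, 0.110 and 0.0857. Without Line 4a mouse 1 and B6 mouse 8, r was 0.32, 0.40, 0.48 and 0.41, so the relations rest largely on those mice. With genotype means removed, r of the 4 genes was 0.85, 0.77, 0.76 and 0.61. For *Grin2a* and *Grin2b*, r was 0.32 and 0.17, and -0.47 and -0.51 without them.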

How the results depend on the processing

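*Grin2a* kept its direction and an unadjusted p under 0.05 in all 30 alternatives, with log2 fold changes from -1.49 to -1.01. *Grin2b* kept its direction in all 30, from -1.77 to -0.89, but had an unadjusted p of 0.0768 with the cortical score in the model and of 0.140 for mice of lanes 5 and 6 alone. No alternative brought a subunit to an adjusted p under 0.05, the lowest being 0.0705 for *Grin2a* (edgeR's likelihood ratio test). The number of subunits at an unadjusted p under 0.05 was 1 for lanes 5 and 6 alone and 2 to 3 without 1 mouse.

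The subunits near 0 changed sign. *Grin1* was -0.0174 on lanes 5 and 6 and ranged from -0.0148 to 0.0588 without 1 mouse. *Grin2d* was -0.0705 with the cortical score, -0.16 on lanes 5 and 6 and -0.0022 to 0.13 without 1 mouse. *Grin3a* was 0.0789 on lanes 7 and 8. *Grin3b* was -0.0021 with RLE scaling, -0.0027 with every gene of at least 1 count, -0.0031 in DESeq2, -0.00039 in the likelihood ratio test, -0.10 in the second lane, -0.16 on lanes 7 and 8, and -0.0452 to 0.0562 without 1 mouse. The *Grin2d* share differed by -0.16 points on lanes 5 and 6, and those of *Grin3a* and *Grin3b* by 0.66 and -0.0437 points on lanes 7 and 8. The shares of *Grin2a*, *Grin2b* and *Grin2c* did not pass p = 0.05 in either lane pair alone or without B6 mouse 8 and Line 4a mouse 1, but did on leaving out any 1 mouse. The *Grin1* share passed p = 0.05 on leaving out any 1 of 6 mice. The *Grin2a* to *Grin2b* log2 ratio differed by -0.48 on lanes 5 and 6, 0.33 on lanes 7 and 8 and -0.14 to -0.01 without 1 mouse. The causes were not tested.

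Of all genes, 1 passed an adjusted p of 0.05, and 31 in DESeq2, 20 in the likelihood ratio test, 2 with a lane pair term, 0 with the replicate block, with the cortical score and in either lane pair alone, and 1 to 4 without 1 mouse (4 without Line 4a mouse 1, 3 without Line 4a mouse 6). A pair of alternatives chosen after seeing the data gave 7 genes without B6 mouse 8 and Line 4a mouse 1, and 6 with the gene length score. At an unadjusted p under 0.05 there were 1559, and 472 with the cortical score, 500 on lanes 5 and 6 and 2711 with the length score.

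The labels do not say whether replicate numbers pair the mice, and expression cannot settle it. Deviations of same-numbered mice correlated at -0.29 to 0.20, over 0.1 in 5 of 8 pairs. Numbers 1, 4 and 8 gave -0.29, -0.08 and -0.09, and numbers 1 and 8 hold the libraries that stood apart. No B6 mouse correlated best with the Line 4a mouse of its own number. The best B6 mouse for each Line 4a mouse was not sought. With the number as a replicate block, *Grin2a* and *Grin2b* stood at -1.20 and -1.10 (adjusted p = 0.474 and 0.50, edgeR), and the ratio differed by -0.08 (p = 0.703, exact sign-flip test).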
